A study of Mus musculus with 6 samples.

Results

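A set of 10 genes that handle stored lipid and cholesterol was followed in cardiac macrophages of mice with and without Lgmn, the gene of the lysosomal protease legumain. They were chosen by symbol, all 10 were found among the 34745 genes of the table, and all 10 were abundant enough to be tested. The set holds 2 coat proteins of lipid droplets (Plin2 and Plin3), 3 enzymes that esterify sterols or diacylglycerol (Soat1, Dgat1 and Dgat2), 2 exporters of cholesterol (Abca1 and Abcg1) and 3 nuclear receptors (Nr1h2, Nr1h3 and Pparg). Messenger RNA of cardiac macrophages was compared between 3 libraries of Lgmn-KO mice (replicates 1, 2 and 4) and 3 libraries of WT mice (replicates 1, 2 and 3). All mice were of the C57BL/6 strain and 8 weeks old. Cells were sorted with antibodies to CD45, CD64 and CD11b after enzymatic digestion of the heart. The series places every sample after myocardial infarction, while the labels name artery ligation or sham surgery without assigning either, and neither the time after surgery nor the cells that lost the gene are stated. Nothing states that each library came from its own animal, so p-values measure the spread between these libraries, which may be technical.

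A macrophage that has engulfed dying cells frees cholesterol and fatty acids in its lysosomes. Excess cholesterol is re-esterified in the endoplasmic reticulum and stored in lipid droplets, or it leaves the cell through ATP-binding cassette transporters that load apolipoproteins and lipoprotein particles. Liver X receptors sense oxidised cholesterol and switch on the exporters, and PPAR gamma responds to fatty acids and switches on genes of lipid uptake, storage and oxidation. Both kinds of receptor bind DNA together with a retinoid X receptor, on repeats of the hexamer AGGTCA that are spaced by 4 bases for liver X receptors (DR4, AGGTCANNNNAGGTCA) and by 1 base for PPARs (DR1, AGGTCANAGGTCA).

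The promoters of Abca1 and Plin2 are shown because Abca1 had the most negative log2 fold change and Plin2 the smallest p of the set, and because each holds a near match to a motif, DR4 in Abca1 and DR1 in Plin2. Each line gives the 250 bases before the RefSeq start site (GRCm38.p6, minus strand, 5′ to 3′), with the best match in capitals, which reads as the motif on the opposite strand.

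Abca1, chr4:53159896-53160145: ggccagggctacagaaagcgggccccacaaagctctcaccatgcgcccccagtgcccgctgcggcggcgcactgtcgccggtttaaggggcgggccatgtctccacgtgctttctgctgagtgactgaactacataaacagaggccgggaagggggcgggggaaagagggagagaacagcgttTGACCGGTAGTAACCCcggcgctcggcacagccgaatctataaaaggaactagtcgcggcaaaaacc
Plin2, chr4:86670060-86670309: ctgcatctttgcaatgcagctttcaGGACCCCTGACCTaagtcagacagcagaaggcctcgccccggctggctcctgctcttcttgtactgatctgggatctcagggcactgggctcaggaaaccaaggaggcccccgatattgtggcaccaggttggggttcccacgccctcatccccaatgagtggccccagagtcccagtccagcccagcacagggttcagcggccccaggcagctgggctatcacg

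The Abca1 match to DR4 began 67 bases before the start site and differed from the motif at 3 of its 12 fixed letters. The Plin2 match to DR1 began 225 bases before the start site and differed at 2 fixed letters. Arl4c, the gene of the pathway lists that passed the test, also had a match to DR4 with 3 mismatches, 75 bases before its start. Both strands of windows of 300 bases (250 before to 50 after the start) were searched, and the 2 motifs may overlap. Of 32851 such RefSeq windows, 21.9% held DR4 and 24.6% held DR1 with at most 3 mismatches, and 3.86% held DR1 with at most 2. Windows were found for 7 of the 10 genes (not Dgat1, Dgat2 and Abcg1). Besides Abca1 and Plin2, a match with at most 3 mismatches was found in Plin3 (DR1) and in 1 of 3 windows of Pparg (DR4). A match describes letters and not a bound site.

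Lgmn, which checks the labels, was at 83.5 ± 4.91 CPM (Lgmn-KO) against 2391 ± 263 CPM (WT; SD, n = 3 per group), with a log2 fold change of -4.84 (edgeR quasi-likelihood test, adjusted p = 3.23e-06). CPM are counts divided by library sizes that carry TMM factors, and the libraries held 19546253 to 24086976 counts. All 8 macrophage markers were detected (7 of 8 with a negative log2 fold change, 0 called by edgeR, 6 at an unadjusted p under 0.05 beside 17.5% of all tested genes), with summed levels of 19726 to 23092 CPM in Lgmn-KO and 21112 to 22935 CPM in WT. Most of that sum was Lyz2 (15356 ± 2304.5 CPM for Lgmn-KO, 16222 ± 1624 CPM for WT; SD, n = 3 per group), so it says little about the other markers. DESeq2 and limma-voom with sample weights called Cd14 and Csf1r lower, where they called 5.45% and 2.71% of all genes. Without WT replicate 1 edgeR called 6 macrophage markers lower (Adgre1, Cd14, Csf1r, Fcgr1, Itgam and Mertk) and 4.99% of all tested genes. Of 9 adipocyte markers, a cell type that also expresses Pparg, Plin2 and Dgat2, 6 (Plin4, Cidea, Cidec, Lep, Retn and Cfd) had 0 counts in every library, and the list summed to 0.197 to 0.519 CPM in Lgmn-KO and 0.0834 to 0.195 CPM in WT. The 3 other markers (Adipoq, Plin1 and Slc2a4) had 0 to 5 counts a library, and their part in the levels of the 10 genes was not tested. In such bulk libraries fewer cells of a type and less RNA per cell cannot be told apart.

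None of the 10 genes passed an adjusted p of 0.05 in the comparison of Lgmn-KO with WT (edgeR quasi-likelihood test, Benjamini-Hochberg over 12546 genes), where 0.789% of all tested genes passed. DESeq2 called 1 of the 10 (Plin2, higher) and limma-voom with sample weights 0, where they called 5.45% and 2.71% of all genes. An unadjusted p under 0.05 was found for 2 of them (Plin2 and Nr1h3), against 17.5% of all tested genes. In the set 7 log2 fold changes were positive and 3 negative, and their median was 0.18 beside -0.0021 for all tested genes. The groups did not overlap in 3 genes (Plin2, Plin3 and Nr1h3), against 23.7% of all tested genes. In these 3 every Lgmn-KO library lay above every WT library, which 10.7% of all tested genes also showed, and in 0 every one lay below, against 13%. The 95% interval of the fitted fold change stayed within a 2-fold change in either direction for 8 of the 10, all but Abca1 and Dgat2. Differences of that size were thus outside the interval for Plin2, Plin3, Soat1, Dgat1, Abcg1, Nr1h2, Nr1h3 and Pparg.

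**Figure D1:**
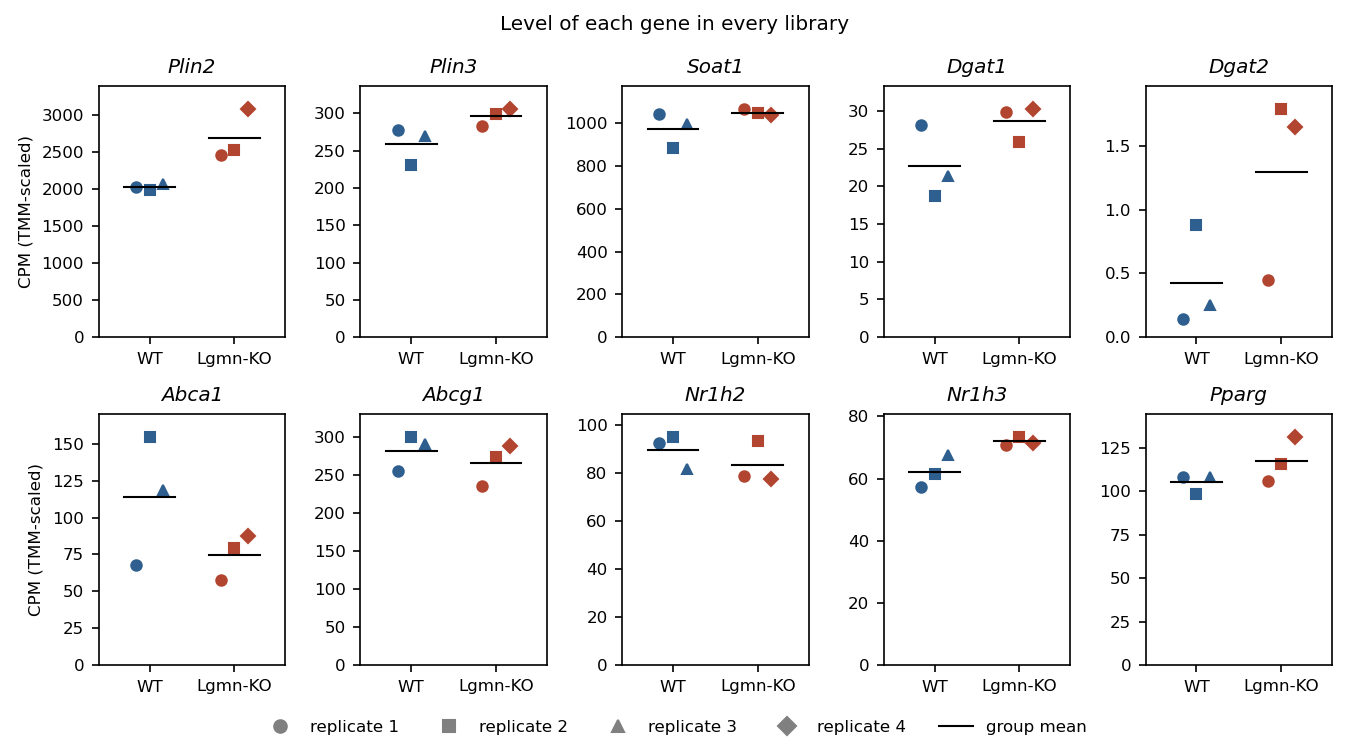
Level of each of the 10 genes (vertical axis, CPM scaled with TMM factors, starting at 0) in the 3 WT and 3 Lgmn-KO libraries. Points are libraries with their replicate number by shape, and lines are group means. Plin2 libraries of Lgmn-KO sit between 2465 and 3088 CPM, above the WT libraries, while Abca1 of WT replicate 1 lies among the Lgmn-KO libraries.

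The genes spanned a wide range of levels, which are compared here as deposited FPKM, that is per length and depth. Plin2 stood highest, with 380 to 583 FPKM over the 6 libraries, above the mean of 99.5% of tested genes, and made up 54.2% to 62.2% of the summed FPKM of the set. It was followed by Plin3 (107 to 140 FPKM), Soat1 (67.3 to 80.8), Abcg1 (55.8 to 71.5), Pparg (23.8 to 31.4), Nr1h3 (11.3 to 14.2), Nr1h2 (8.79 to 10.9), Abca1 (5.41 to 14.6), Dgat1 (3.41 to 5.45) and Dgat2 (0.0661 to 0.795). The ranges of Soat1 and Abcg1 overlapped, as did those of Abca1 with Nr1h2, Nr1h3 and Dgat1. Within a library Abca1 was above Dgat1 in all 6, by little in Lgmn-KO replicate 1 (5.41 and 5.40 FPKM). The order of the others varied between libraries. Abcg1 was above Soat1 in WT replicate 2, and Abca1 was above Nr1h2 in WT replicates 2 and 3 and above Nr1h3 in WT replicate 2. The order also rests on the gene lengths behind the deposited FPKM. Those lengths were 0.570 to 2.59 times the exon bases that GENCODE M21 annotates for the same 10 genes. With the GENCODE exon lengths, an alternative chosen after the data were seen, the mean of Soat1 was 103 FPKM and that of Plin3 73.3, which exchanges their order. Abcg1 (37.6) and Pparg (37.7) as well as Nr1h3 (26.6) and Nr1h2 (25.7) then had nearly the same level, while Plin2 remained first and Dgat2 last.

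Plin2 coats lipid droplets and is widely used as their marker, and it was the best supported of the set. It lies on chromosome 4 (ENSMUSG00000028494, chr4:86648386-86670060, minus strand, GRCm38). Positions of genes are those of the table, and all 10 are protein-coding, on the minus strand except Abcg1 and Pparg. Its level was 2465, 2533 and 3088 CPM in Lgmn-KO replicates 1, 2 and 4 and 2034, 1997 and 2075 CPM in WT replicates 1, 2 and 3. The groups did not overlap, the WT libraries were close to each other, and Lgmn-KO replicate 4 stood apart as the highest. The fitted fold was 1.32, with a 95% interval of 1.13 to 1.55, a log2 fold change of 0.41 (standard error 0.097) and an adjusted p of 0.0937 (edgeR quasi-likelihood test). DESeq2's Wald test gave an adjusted p of 0.00732 and a log2 fold change of 0.42. Over all 13 alternatives the log2 fold change lay between 0.29 and 0.47. The adjusted p lay between 0.00732 (DESeq2) and 0.468 (edgeR with the replicate block). Without Lgmn-KO replicate 4 the log2 fold change was 0.29. In the authors' deposited table Plin2 has a log2 fold change of 0.391 and a q of 0.0526.

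Plin3 encodes a related coat protein that moves from the cytosol onto nascent droplets (ENSMUSG00000024197, chr17:56278962-56290511). It was at 283, 299 and 306 CPM in the Lgmn-KO libraries and at 277, 231 and 270 CPM in the WT libraries. The groups did not overlap, but WT replicate 1 lay close below Lgmn-KO replicate 1. For this gene the fitted fold came to 1.14 with an interval of 0.993 to 1.31 (adjusted p = 0.31, edgeR quasi-likelihood test). Within a library Plin2 exceeded Plin3 by 3.02 to 4.16 times in counts per length, and by 7.91 to 10.9 times with the GENCODE exon lengths, which move the size of such a ratio but not the difference between groups. This ratio was 3.59, 3.49 and 4.16 in Lgmn-KO and 3.02, 3.56 and 3.17 in WT, and WT replicate 2 lay inside the Lgmn-KO range. An exact two-sided permutation test of the log2 ratio gave p = 0.2 (0.25 adjusted over 5 ratios), where 3 against 3 libraries cannot go below 0.1.

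Soat1, also known as ACAT1, joins cholesterol to fatty acids and so makes the sterol esters of foam cells (ENSMUSG00000026600, chr1:156424525-156474331). Its level was 1067, 1046 and 1036 CPM in the Lgmn-KO libraries and 1041, 886 and 994 CPM in WT. WT replicate 1 lay within the narrow Lgmn-KO range and WT replicate 2 was the lowest. With 1050 ± 15.7 and 974 ± 79.3 CPM (SD, n = 3 each), the fitted fold of 1.08 had an interval of 0.953 to 1.22 (adjusted p = 0.521, edgeR quasi-likelihood test).

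Dgat1 and Dgat2 catalyse the last step of triglyceride synthesis and belong to unrelated protein families. Dgat1 (ENSMUSG00000022555, chr15:76502015-76511951) was at 29.8, 25.9 and 30.3 CPM in the Lgmn-KO libraries and 28.1, 18.8 and 21.3 CPM in WT. WT replicate 1 again lay among the Lgmn-KO libraries, while the 2 other WT libraries were lower than all of them. The fitted fold was 1.26, with an interval of 0.98 to 1.62 (adjusted p = 0.326, edgeR quasi-likelihood test), and the log2 fold change of 0.34 became 0.52 when WT replicate 1 was left out (adjusted p = 0.0562). Dgat2 (ENSMUSG00000030747, chr7:99153663-99182713) had 9, 35 and 35 counts in the Lgmn-KO libraries against 3, 19 and 6 counts in the WT libraries, and it was tested because 2 Lgmn-KO libraries and 1 WT library exceeded the minimum level of the filter. The lowest library of each group carried the number 1, and WT replicate 2 lay between the Lgmn-KO libraries. Leaving out WT replicate 2 moved the Dgat2 log2 fold change from 1.59 to 2.65. A fitted fold of 3.02 had an interval of 0.921 to 9.9 (adjusted p = 0.322, edgeR quasi-likelihood test). With this interval neither a large difference nor its absence could be told, and the part of depth in its width was not tested.

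Soat1 exceeded Dgat1 by 14.3 to 19.7 times in counts per length (10.7 to 14.7 with the GENCODE lengths). The ratio was 15.0, 16.9 and 14.3 in Lgmn-KO and 15.5, 19.7 and 19.5 in WT (exact permutation p = 0.2, adjusted 0.25), with WT replicate 1 inside the Lgmn-KO range. Dgat2 was the minor diacylglycerol acyltransferase in every library, at 0.0148 to 0.171 times the counts per length of Dgat1 (0.0060 to 0.0695 with the GENCODE lengths). The ratio of Dgat2 to Dgat1 was 0.0383, 0.171 and 0.135 in Lgmn-KO and 0.0148, 0.117 and 0.0310 in WT (exact permutation p = 0.2, adjusted 0.25), and the groups overlapped.

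Abca1 moves cholesterol and phospholipid to lipid-poor apolipoprotein A-I and is among the best known liver X receptor targets. The gene covers chr4:53030787-53159895 (ENSMUSG00000015243) on the minus strand, and its promoter with the DR4 match is printed above. Its level was 57.5, 79.3 and 87.7 CPM in the Lgmn-KO libraries and 67.9, 155 and 119 CPM in WT. WT replicates 2 and 3 were above all Lgmn-KO libraries, and WT replicate 1 lay inside the Lgmn-KO range. Means were 74.8 ± 15.6 and 114 ± 43.7 CPM (SD, n = 3 each), a fitted fold of 0.658 with an interval of 0.413 to 1.05 (log2 fold change -0.60, adjusted p = 0.336, edgeR quasi-likelihood test). The value turned on single WT libraries: the log2 fold change was -0.87 without WT replicate 1 (adjusted p = 0.0522) and -0.32 without WT replicate 2 (adjusted p = 0.668). In the authors' deposited table Abca1 has a log2 fold change of -0.614 and a q of 0.194.

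Levels of markers of other cell types also differed between the libraries. Of these markers edgeR called Flt1 (endothelial cell), Zbtb46 (dendritic cell) and Trac (T and NK cell), all lower in Lgmn-KO. Their adjusted p was 0.015, 0.041 and 0.0465 (edgeR quasi-likelihood test), where 0.789% of all tested genes passed. Trac had 1, 2 and 1 counts in Lgmn-KO against 12, 29 and 25 in WT. By edgeR the fibroblast, neutrophil, B cell, cardiomyocyte and monocyte lists had 0 calls. Outside the macrophage and monocyte lists DESeq2 also called Pecam1, Mmp8, Dcn, Cd3e, Cd3g and Lck lower (5.45% of all genes). Limma-voom with sample weights added Pecam1, Mmp8, Cd3g and Lck, also lower (2.71% of all genes). The endothelial cell sums of the groups overlapped. Most of that sum was Kdr (30.1 ± 9.26 CPM for Lgmn-KO, 29.9 ± 3.40 CPM for WT, SD, n = 3 per group). Of the 4 endothelial markers tested 3 were lower in every Lgmn-KO library (13% of all tested genes). Of 7 dendritic cell markers 6 had counts (Siglech was at 0 in every library), and they summed to 3.21, 4.60 and 5.09 CPM in Lgmn-KO replicates 1, 2 and 4 and to 5.31, 15.6 and 10.9 CPM in WT replicates 1, 2 and 3. The 8 fibroblast markers, all detected, summed to 45.4 to 117 CPM in the Lgmn-KO libraries and 132 to 181 CPM in the WT libraries. The 9 T and NK cell markers, of which Ncr1 was at 0 in every library, summed to 1.09 to 1.64 CPM in Lgmn-KO and 5.21 to 9.93 CPM in WT. The 8 monocyte markers, all detected, summed to 663, 559 and 602 CPM in Lgmn-KO replicates 1, 2 and 4 and to 538, 815 and 606 CPM in WT replicates 1, 2 and 3, and most of that sum was Chil3 (457 ± 59.5 CPM for Lgmn-KO, 435 ± 82.5 CPM for WT; SD, n = 3 per group). Of the 7 monocyte markers tested 6 were on the negative side, with a median of -1.02 on the log2 scale. By edgeR 0 of them passed, and 4 had an unadjusted p under 0.05 (17.5% of all tested genes). DESeq2 called Ccr2 and Ms4a4c lower (5.45% of all genes), and limma-voom with sample weights called 0 (2.71% of all genes). Ccr2, the chemokine receptor of recruited monocytes, had 130, 76 and 92 counts in the Lgmn-KO libraries against 234, 1452 and 854 counts in the WT libraries (adjusted p = 0.0727, edgeR quasi-likelihood test). Abca1, the dendritic cell and neutrophil sums and Ccr2 were each highest in WT replicate 2 and next in WT replicate 3. The 8 neutrophil markers summed to 272, 291 and 328 CPM in Lgmn-KO and to 311, 455 and 368 CPM in WT. Csf3r and Mmp8 carried most of that sum, with log2 fold changes of 0.18 and -1.18. Group means of Mmp8 were 84.7 ± 13.3 (Lgmn-KO) and 191 ± 58.0 (WT), those of Csf3r 190 ± 16.2 and 168 ± 16.5 (CPM, SD, n = 3 per group). Of the 6 neutrophil markers tested 3 were on the positive side, and the median was 0.06, so the sum says little about the others. The macrophage markers Adgre1, Fcgr1, Csf1r, Cd14, Itgam and Mertk had the same order as Abca1 in WT replicates 2 and 3, and Cd68 and Lyz2 did not. The fibroblast, T and NK cell, endothelial cell and monocyte sums did not share it. The part of these cells in the Abca1 values was not tested.

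Abcg1 passes cholesterol on to mature high-density lipoprotein and is also a liver X receptor target (ENSMUSG00000024030, chr17:31057698-31115777, plus strand). It was at 236, 275 and 289 CPM in the Lgmn-KO libraries and 255, 301 and 291 CPM in WT. Lgmn-KO replicate 1 was the lowest library, and the groups overlapped. Its fitted fold of 0.943 came with an interval of 0.802 to 1.11 (adjusted p = 0.727, edgeR quasi-likelihood test), and the sign turned without Lgmn-KO replicate 1 (log2 fold change 0.0053). Abca1 was at 0.0970, 0.115 and 0.121 times Abcg1 in counts per length in Lgmn-KO and at 0.106, 0.205 and 0.162 times in WT (0.172 to 0.362 over all libraries with the GENCODE lengths). The highest ratios were those of WT replicates 2 and 3, and the exact permutation p was 0.3 (adjusted 0.3).

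**Figure D2:**
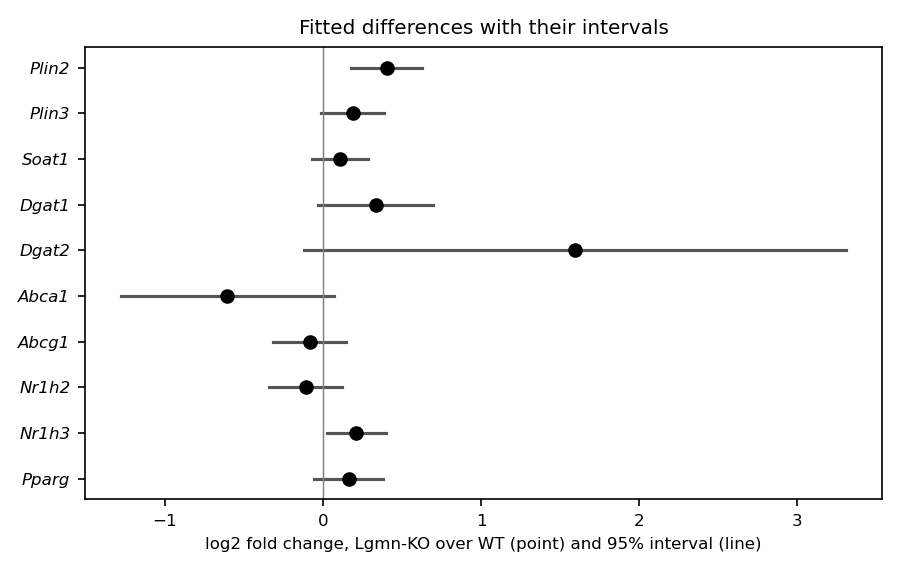
Fitted log2 difference between Lgmn-KO and WT (horizontal axis, points, positive where Lgmn-KO is higher) with its 95% interval (lines) for the 10 genes, from the fit over all 12546 genes. The intervals of Plin2 and Nr1h3 lie above 0, those of the other 8 include 0, and that of Dgat2 is the widest.

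Nr1h3 encodes liver X receptor alpha, the form enriched in macrophages and liver (ENSMUSG00000002108, chr2:91184061-91202834). Its level was 70.9, 73.5 and 71.4 CPM in the Lgmn-KO libraries and 57.2, 61.5 and 67.7 CPM in WT. All Lgmn-KO libraries were above all WT libraries, with WT replicate 3 close below them. The fitted fold was 1.16 with an interval of 1.02 to 1.32 (adjusted p = 0.237, edgeR quasi-likelihood test). Its exons share 34 of 2515 bases with the annotated transcript Gm13783 on the same strand, and the 9 other genes of the set share no exon bases with another gene in GENCODE M21.

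Nr1h2 encodes liver X receptor beta, which most tissues express (ENSMUSG00000060601, chr7:44549616-44553951). It was at 78.8, 93.1 and 77.4 CPM in the Lgmn-KO libraries and 92.4, 95.002 and 81.4 CPM in WT, and the groups overlapped. Its fitted fold of 0.927 came with an interval of 0.79 to 1.09 (adjusted p = 0.629, edgeR quasi-likelihood test). The ratio of Nr1h3 to Nr1h2 in counts per length was 1.51, 1.33 and 1.55 in Lgmn-KO and 1.04, 1.09 and 1.40 in WT (0.826 to 1.23 over all libraries with the GENCODE lengths, which puts Nr1h2 above Nr1h3 in some of them). WT replicate 3 lay inside the Lgmn-KO range, and the difference of 0.32 on the log2 scale gave an exact permutation p of 0.2 (adjusted 0.25).

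Pparg encodes PPAR gamma, the receptor that drives fat cell formation and that alveolar and other tissue macrophages use for lipid handling (ENSMUSG00000000440, chr6:115360951-115490399, plus strand). Its level was 106, 116 and 132 CPM in the Lgmn-KO libraries and 108, 98.8 and 108 CPM in WT. Lgmn-KO replicate 1 lay below WT replicates 1 and 3, and Lgmn-KO replicate 4 was the highest. A fitted fold of 1.12 had an interval of 0.962 to 1.3 (adjusted p = 0.424, edgeR quasi-likelihood test), and without Lgmn-KO replicate 4 the log2 fold change was 0.07 in place of 0.16. Among the Lgmn-KO libraries, replicate 4 was the highest for Plin2, Plin3, Dgat1, Abca1, Abcg1 and Pparg.

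**Figure D3:**
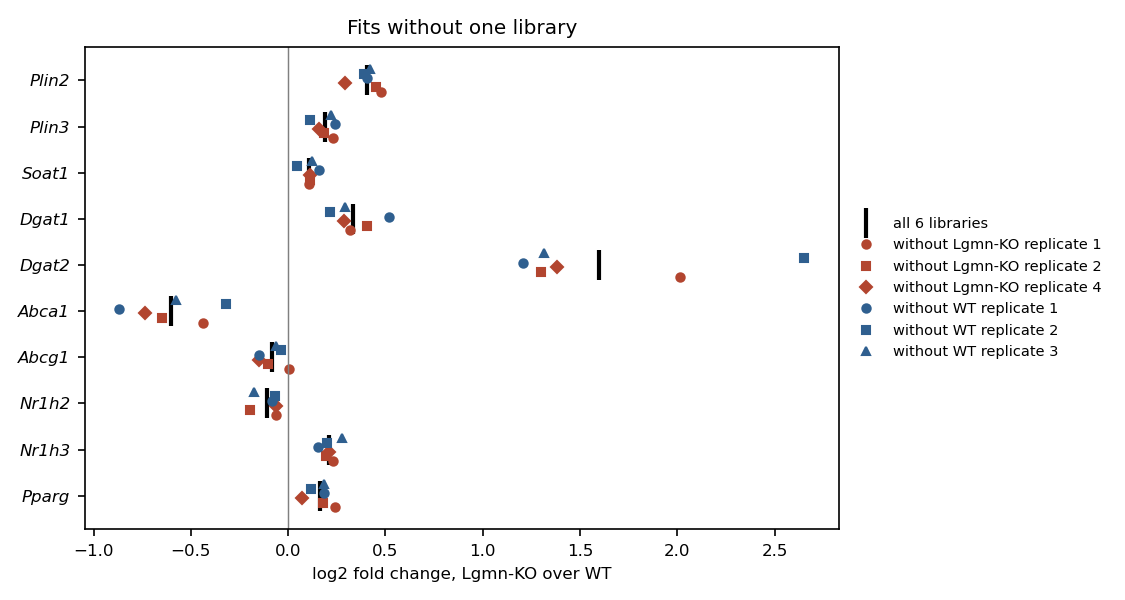
Log2 ratio of Lgmn-KO to WT (horizontal axis) for the 10 genes in the fit of all 6 libraries (black bars) and in the 6 fits that leave out a library (points, coloured by the group and shaped by the replicate left out). Abca1 ranges from -0.87 without WT replicate 1 to -0.32 without WT replicate 2, and Abcg1 alone crosses 0.

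**Figure D4:**
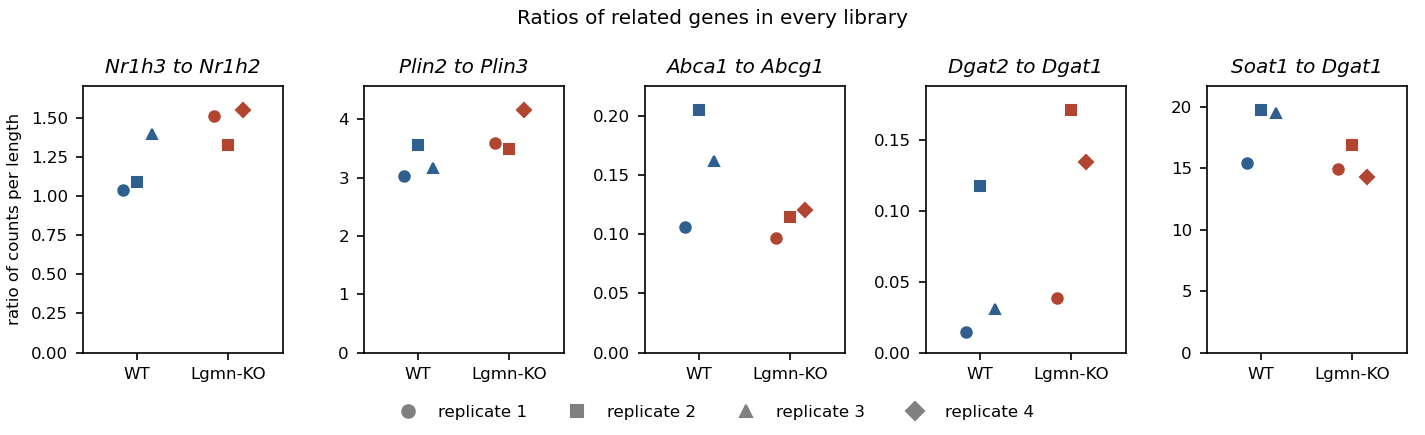
Ratio of counts per length of 5 pairs of related genes (vertical axes, starting at 0) in each WT and Lgmn-KO library, with the replicate number by shape. In all 5 pairs at least 1 WT library lies within the Lgmn-KO range.

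The other genes of these pathways were read from 7 lists with 112 genes, of which 110 were found and 88 were abundant enough to be tested. Of the 88, 1 fell and 0 rose in Lgmn-KO (edgeR quasi-likelihood test, adjusted p below 0.05; 0.478% and 0.311% of all tested genes), and 20 had an unadjusted p under 0.05, beside 17.5% of all tested genes. DESeq2 called 8 (3 higher, 5 lower) and limma-voom with sample weights 4 (2 higher, 2 lower), where they called 5.45% and 2.71% of all genes with an adjusted p. Without WT replicate 1 edgeR called 7, and 4.99% of all tested genes. The median log2 fold change of the 88 was -0.0061.

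Arl4c, a small GTPase gene that liver X receptors induce and that has been tied to cholesterol export, was the gene that fell. It had 805, 773 and 675 counts in Lgmn-KO replicates 1, 2 and 4 and 1470, 1714 and 1712 counts in WT replicates 1, 2 and 3, and the groups were far apart. Its level was 37.0 ± 4.50 CPM (Lgmn-KO) against 74.1 ± 4.55 CPM (WT; SD, n = 3 per group), a log2 fold change of -1.0015 (standard error 0.105; adjusted p = 0.015, edgeR quasi-likelihood test). The adjusted p was 0.0964 without Lgmn-KO replicate 2 and 0.0567 without WT replicate 3, with log2 fold changes of -1.05 and -1.03. The dendritic cell, T and NK cell and fibroblast sums given beside Abca1 were likewise lower in every Lgmn-KO library than in every WT library, and their part in the values of Arl4c and of the liver X receptor targets was not tested.

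Among liver X receptor targets outside the set, 12 of 14 tested genes were on the negative side and the median log2 fold change was -0.36. Mertk was counted here and among the macrophage markers, of which 7 of 8 were on the negative side. The part of those markers in the values of these targets was not tested. Every Lgmn-KO library was below every WT library in 6 of the 14 and above in 0, beside 13% and 10.7% of all tested genes. With adjustment over all genes, Arl4c alone passed by edgeR (0.789% of all tested genes), and 6 had an unadjusted p under 0.05 (17.5% of all tested genes). DESeq2 called 4 and limma-voom with sample weights 2, all lower, where they called 5.45% and 2.71% of all genes. Those further calls were Scd2, Fasn and Apoc2 (named after their values were seen). Scd2, a fatty acid desaturase, was at 24.2 ± 4.09 CPM (Lgmn-KO) against 42.6 ± 3.94 CPM (WT; SD, n = 3 per group, adjusted p = 0.0519, edgeR quasi-likelihood test), and Fasn, the fatty acid synthase, at 32.0 ± 5.05 and 50.6 ± 4.84 CPM (adjusted p = 0.0701). Apoe, the apolipoprotein that accepts exported cholesterol and the most abundant of the list, was at 5535 ± 590 and 6757 ± 1288 CPM (log2 fold change -0.29, adjusted p = 0.375). Lpl, lipoprotein lipase, which is also a PPAR target, stood at a log2 fold change of 0.09 (adjusted p = 0.823). Without WT replicate 1 edgeR called 4 of these genes (Arl4c, Scd2, Pltp and Mertk), and 4.99% of all tested genes. Without Lgmn-KO replicate 2 or without WT replicate 3 it called 0 of these genes.

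Among PPAR targets 11 of 16 tested genes were on the positive side and the median log2 fold change was 0.08. Every Lgmn-KO library was above every WT library in 6 of the 16 and below in 1, beside 10.7% and 13% of all tested genes. By edgeR 0 passed, and 7 had an unadjusted p under 0.05 (17.5% of all tested genes). DESeq2 called 3 (Hilpda and Ech1 higher, Tgm2 lower, named after their values were seen), and 5.45% of all genes. Limma-voom with sample weights called 2 (Hilpda and Ech1), and 2.71% of all genes. Hilpda, an inhibitor of the triglyceride lipase on droplets, had 54.0 ± 3.26 CPM (Lgmn-KO) against 41.7 ± 0.801 CPM (WT; SD, n = 3 per group, adjusted p = 0.0713, edgeR quasi-likelihood test). Fabp5, a fatty acid carrier and the most abundant of the list, was at 3599 ± 102 and 3220 ± 98.7 CPM (log2 fold change 0.16, adjusted p = 0.26). Without WT replicate 1 edgeR called Acadl (higher) and Tgm2 (lower), and 4.99% of all tested genes. The counts of the LXR and PPAR lists describe these genes, and whether the lists differ from each other was not tested.

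**Figure D5:**
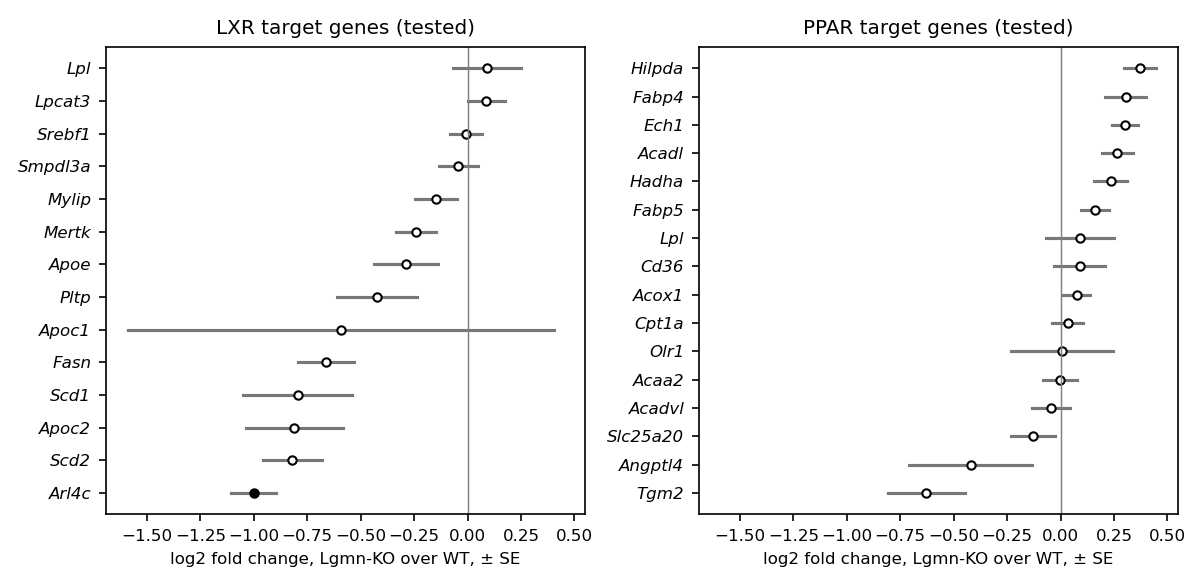
Log2 ratio of Lgmn-KO to WT (horizontal axis, points, with lines of 1 standard error to each side) of the tested genes in the lists of LXR targets (left, 14 genes) and PPAR targets (right, 16 genes). The filled point is Arl4c, the gene with an adjusted p below 0.05, and 12 of 14 points on the left but 5 of 16 on the right lie below 0.

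Enzymes that empty the store, together with regulators of such enzymes, were read from the list of lipases. In it 6 of 7 tested genes were on the positive side and the median log2 fold change was 0.13. Every Lgmn-KO library was above every WT library in 2 of the 7 and below in 1, beside 10.7% and 13% of all tested genes. None passed by edgeR, 4 had an unadjusted p under 0.05 (17.5% of all tested genes), DESeq2 called Lipa (5.45% of all genes) and limma-voom with sample weights 0. Lipa, the acid lipase that frees cholesterol from lipoprotein and engulfed esters in the lysosome, was at 2187 ± 53.6 CPM (Lgmn-KO) against 1811 ± 58.9 CPM (WT; SD, n = 3 per group, log2 fold change 0.27, adjusted p = 0.0907, edgeR quasi-likelihood test). Nceh1, which hydrolyses cholesterol esters outside the lysosome, stood at a log2 fold change of 0.11 (adjusted p = 0.55).

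Other droplet proteins had a median of 0.06 over 10 tested genes. By edgeR 0 passed, and 2 had an unadjusted p under 0.05 (17.5% of all tested genes). DESeq2 and limma-voom with sample weights each called Hilpda (5.45% and 2.71% of all genes). Of the 18 listed, 6 had 0 counts in every library, including the perilipins Plin4 and Plin5 and the droplet fusion proteins Cidea and Cidec, and Plin1 had 0 to 4 counts. Plin2 and Plin3 were therefore the perilipins detected beyond single counts. The droplet-associated genes of highest mean FPKM, Rab18 and Hsd17b11, stood at 0.07 and 0.08 on the log2 scale (adjusted p = 0.746 and 0.67, edgeR quasi-likelihood test).

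Genes of glycerolipid and sterol ester synthesis had a median of -0.0082 over 14 tested genes. None passed by edgeR, DESeq2 or limma-voom with sample weights, and 1 had an unadjusted p under 0.05 (17.5% of all tested genes). That gene, Lpin2, a phosphatidate phosphatase, was at 31.9 ± 2.84 CPM (Lgmn-KO) against 48.8 ± 18.0 CPM (WT; SD, n = 3 per group, adjusted p = 0.236, edgeR quasi-likelihood test). Acsl5 and Gpat4, the highest of the list by mean FPKM, had log2 fold changes of -0.14 and 0.03.

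For cholesterol egress and efflux, Arl4c was the called gene among 15 tested (0.789% of all tested genes), and the median was -0.11. An unadjusted p under 0.05 was found for 2 of the 15 (17.5% of all tested genes). Npc2, which hands cholesterol from the lysosomal lumen to the membrane, was at 1602 ± 88.3 CPM (Lgmn-KO) against 1865 ± 189 CPM (WT; SD, n = 3 per group, adjusted p = 0.269, edgeR quasi-likelihood test), and Pltp joined the calls without WT replicate 1.

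Partners and coregulators of the receptors had a median of -0.080 over 17 tested genes, with 0 at an unadjusted p under 0.05 and 0 called by edgeR, DESeq2 or limma-voom with sample weights. Rxra, the list's highest by mean FPKM and a partner of all 3 receptors, stood at a log2 fold change of -0.082 (adjusted p = 0.555, edgeR quasi-likelihood test), Ncoa3, a coactivator, of -0.082 (adjusted p = 0.542) and Hdac3, a deacetylase of corepressor complexes, of 0.29 (adjusted p = 0.289). Rxrg had 0 counts in every library, and Ppara had 4 counts in WT replicate 1 and 0 elsewhere. Without WT replicate 1 edgeR called Tbl1xr1, higher in Lgmn-KO, and 4.99% of all tested genes.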

How the data were processed

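Messenger RNA of 6 libraries was analysed from a single deposited table, whose columns were matched to the samples by title. Per the file headers it holds whole-number counts and FPKM per gene and sample, and the authors' log2 fold change, p-value and q-value. HISAT2, TopHat and TopHat2 2.0.9 are named without a role, beside a human build, per the submitters' processing notes. The table's gene IDs are mouse: 98.8% are in GENCODE M21 (GRCm38), 80.9% of these with the same position. No source used here gives the counter, strand setting or authors' test, so a gene and an antisense partner could not be told apart. The deposited FPKM were used only to set levels between genes, through the gene length they imply, and the authors' log2 values and p-values are quoted, not tested.

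Counts were filtered (filterByExpr, minimum count 10, about 0.478 CPM), scaled by TMM and tested with edgeR 4.0.16 in R 4.3.3 (glmQLFit, glmQLFTest), with Benjamini-Hochberg adjustment over 12546 genes. Standard errors come from the F statistic. Ratios used counts plus 0.5 and exact permutation tests. Alternatives used DESeq2 1.42.0, limma 3.58.1, other scalings, no filter, fits without 1 library, a replicate block and a looser threshold. Pairs of libraries of a group differed by 14.0 to 42.7 times sampling noise (chi-square over degrees of freedom), and each was counted as a library. A count of 0 allows up to 3 counts, 0.125 to 0.153 CPM, for counting error only. The procedure was tested on simulated data with changes of 2-fold or more, and smaller changes were not simulated. Genes named are the 10 genes, Lgmn and, per list, the called genes (where none, the gene with the smallest p) plus the 2 that lead by mean FPKM. Further list and marker genes are named where a fit or tool called them or where they carry a marker sum, chosen after their values were seen. Genes, lists and tests were chosen with earlier results of these data known.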

Additional observations from a re-analysis of the deposited data

How the results depend on the processing

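Over all genes 99 passed (39 higher, 60 lower in Lgmn-KO), 165 with library size alone (47 higher, 118 lower), 318 without a filter, 772 with DESeq2, 340 with limma-voom and sample weights, 503 at a threshold of 0.1, and 6 to 639 in fits without 1 library (fewest without Lgmn-KO replicate 2, most without WT replicate 1). Of the 10 genes 0 passed, and 1 (Plin2) with DESeq2 and at a threshold of 0.1, and 0 in every fit without 1 library. Of the pathway genes 1 passed, 2 with library size alone, 3 without a filter, 8 with DESeq2, 4 with limma-voom and sample weights, 6 at a threshold of 0.1 and 0 to 7 without 1 library. The 13 alternatives gave 130 values for the 10 genes, of which 127 kept direction and side of the threshold. The alternative with a threshold of 0.1 reads the main fit again, so its directions could not change. In 1 value the sign changed (Abcg1, -0.08 with all libraries, -0.15 to 0.0053 in fits without 1 library, the latter without Lgmn-KO replicate 1). The 5 ratios kept their direction with a pseudocount of 5 and without any 1 library. The cause of these differences was not tested. Replicate numbers 1 and 2 occur in both groups and nothing says that they pair the samples (correlation of deviations 0.14 and 0.049). With the replicate block 39 genes, 0 of the 10 and 0 pathway genes passed (Arl4c, log2 fold change -0.93, adjusted p = 0.0581 by edgeR). Replicate 3 occurs only in WT and replicate 4 only in Lgmn-KO, so that fit compared the groups through replicates 1 and 2 alone. With 3 libraries a group, Dgat2 combined few counts with a wide spread between libraries, and the part of depth in its wide interval was not tested. A plain count ratio was not run, since length is constant within a pair.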
